A study of Mus musculus with 8 samples.

Results

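The genes described here are the histone genes of the mouse as they are carried by an Agilent array. They were found by symbol among the probes for RefSeq mRNAs: every gene named Hist1h, Hist2h, Hist3h, Hist4h, H2af, H3f3 or H1f, by the array's own gene name or by the current or older RefSeq symbol, was taken. This gave 136 probes for 82 of the 20476 mRNA genes on the array. Of the 82 genes, 66 are replication-dependent (all those named Hist) and 16 are variants. RNA came from the spinal cord of 8 female mice aged 8 weeks, 4 with a contusion injury, a bruise made by a blunt impact, and 4 controls, with 1 array per mouse. No strain or genotype is given in the labels. The segments T9 to T10 around the injury were collected, so each array is a mixture of all cells of the tissue. By their titles all 4 contusion samples were taken at day 3. The description of replicate 1 says the same, but those of replicates 2, 3 and 4 name days 4, 5 and 6. The controls are called sham animals in the design text and normal cord in their descriptions.

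Histones are the proteins around which DNA is wound. H2A, H2B, H3 and H4 form the core of the nucleosome, and H1 binds the DNA between nucleosomes. The replication-dependent genes lie in clusters, have no introns and are read mainly in S phase, when new DNA must be packed. Their mRNAs end in a conserved stem-loop instead of a poly(A) tail, and the stem-loop is bound by the protein Slbp. Most variant genes lie apart from the clusters, although H2afj lies near Hist4h4 (coordinates below), and most have introns and poly(A) tails. Cells make the products of the variant genes throughout the cell cycle and after they have stopped dividing.

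A probe was tested if it stood well above background on 4 or more of the 8 arrays, and 78 histone genes had such a probe. The 4 others, Hist1h2ah, Hist2h2ab, Hist2h3b and H2ab2, were too dim. A level is the log2 intensity of a probe relative to the 75th percentile of its array, so levels of different probes were not compared. Each difference is the mean log2 level after contusion less that of the controls, ± its standard error from limma, with 4 arrays per group throughout. A gene was called, and said to have risen or fallen, at a Benjamini-Hochberg adjusted p under 0.05 in limma's fit over all 89105 features tested. The kit used copies total RNA, and how well it copies mRNAs without a poly(A) tail is not given in the sources used here. In whole tissue, more cells that express a gene and more of its RNA per cell cannot be told apart.

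The 3′ stem-loop is printed first because it marks the replication-dependent mRNAs and because many probes on the array contain it. The pattern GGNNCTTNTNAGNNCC, 16 bases with a 6-base stem and a 4-base loop, was found in 30 histone probes for 29 genes, all replication-dependent. On the strand of the mRNA it occurred in 42 of the 150305 different probes (0.0279%), and 4 more held it on the other strand alone. It came in 6 forms, here each with up to 4 bases on either side, taken from the array's probe sequences. Capitals mark the pattern, and the gene is the one with the largest difference among the tested probes of that form.
Hist1h3b: caaaGGCTCTTTTCAGAGCCacc
Hist1h2bk: caaaGGCTCTTTTAAGAGCCacta
Hist1h4f: caaaGGCCCTTTTCAGGGCCaccc
Hist1h3g: taaaGGCTCTTCTTAGAGCCaccc
Hist2h2ac: aaaaGGCTCTTTTTAGAGCCacca
Hist1h4b: aaaaGGTCCTTTTCAGGACCactc
The first form was the commonest, with 18 probes, followed by the second with 5 and the third with 4, and the others occurred once each. The 4 tested probes of the third form all belong to H4 genes (Hist1h4d, Hist1h4f, Hist1h4k and Hist1h4m). Of the 26 tested stem-loop probes 25 were higher after contusion, with a median difference of 1.75. The 66 other tested probes of these genes fell into 14 that hold a start codon (11 higher, median 1.23) and 52 at other positions (45 higher, median 1.08). Among the 26 is the probe of Hist1h3a, and among the 52 that of Hist1h2an. Both passed the filter through the contusion arrays alone and had to differ. Of all mRNA genes tested, each by 1 probe, 25.8% were called higher.

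After contusion the replication-dependent histone genes were higher almost throughout, while the variants moved little. Of 63 replication-dependent genes tested 58 rose, 1 (Hist1h2be) fell and 4 were not called. Among all 18198 mRNA genes tested, 25.8% were called higher, 25.4% lower and 51.1% either way. The median difference of the replication-dependent genes was 1.36, a 2.57-fold increase, against 0.00 for all mRNA genes. Differences of at least 2-fold were called in 41 of the 63 genes, compared with 8.33% of all mRNA genes. Of the 15 variants tested 6 rose, 1 (H1fx) fell and 8 were not called, with a median of 0.26. The groups did not overlap in 56 of the 63 replication-dependent genes and 8 of the 15 variants, and in 51.8% of all mRNA genes. Every contusion array lay above every control array in 55 and 7 of them (26.6% of all mRNA genes), and below in 1 and 1 (25.2%).

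**Figure D1:**
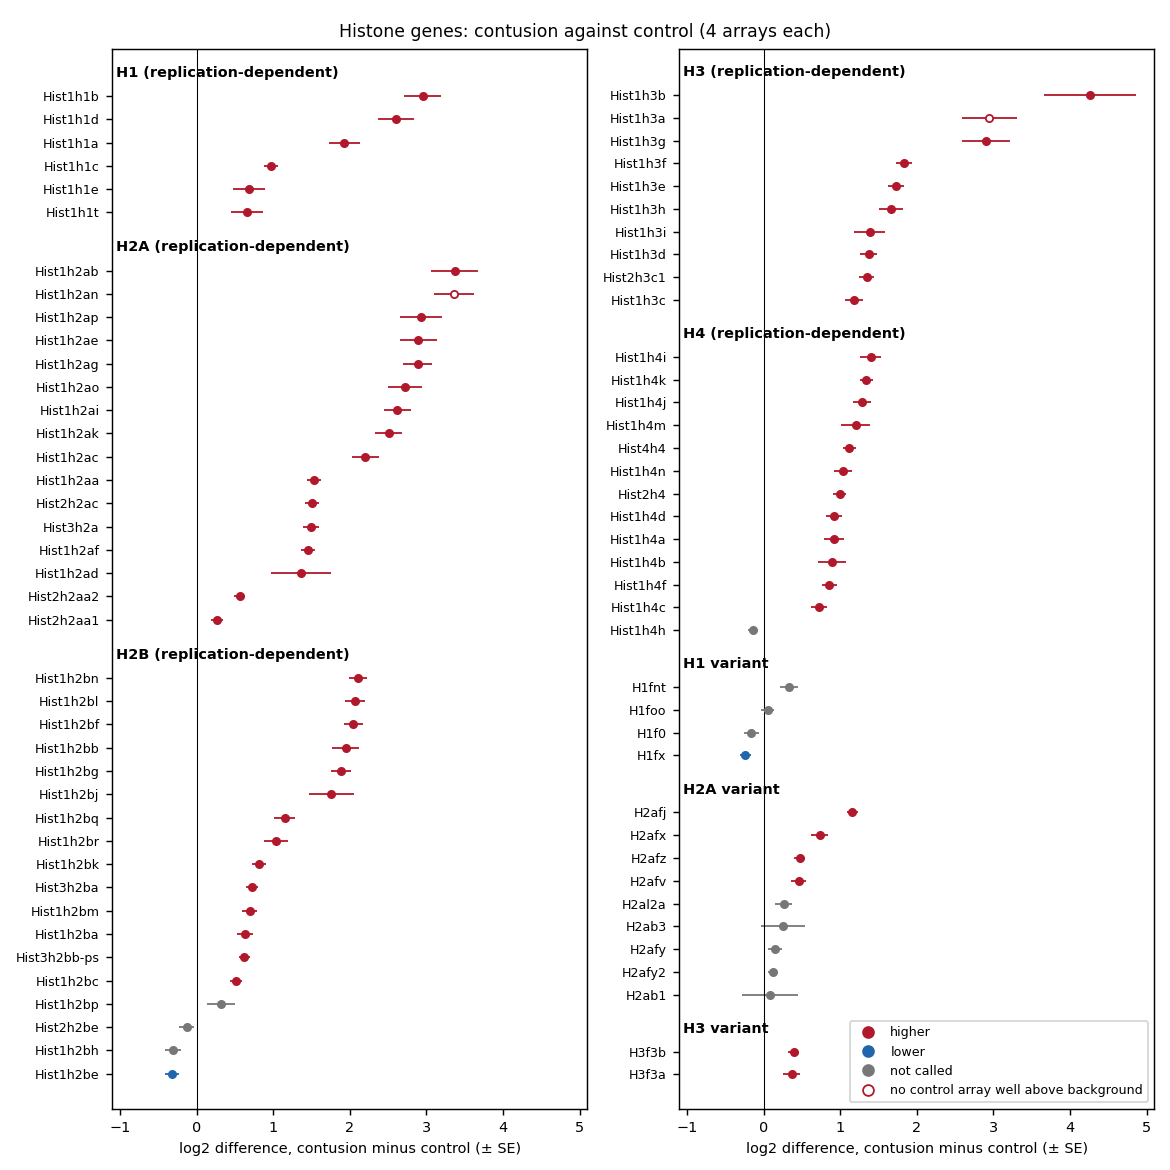
The log2 difference between contusion and control (x axis) is plotted for each of the 78 tested histone genes, in 8 families, with bars of ± 1 standard error (4 arrays per group). Red points were called higher, blue lower and grey not called, and open points are genes without a control array well above background. All 6 H1, 16 H2A and 10 H3 replication-dependent genes lie to the right of 0, while most variants lie closer to it, with a median of 0.26.

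The same separation was seen array by array. The mean level over the replication-dependent genes was 0.41, 0.13, 0.40 and 0.07 on control arrays 1 to 4 and 1.74, 1.56, 1.84 and 1.86 on contusion arrays 1 to 4. The mean over the variants was 2.00, 1.94, 1.93 and 1.97 on the controls and 2.25, 2.11, 2.34 and 2.32 after contusion. The first mean minus the second was therefore between -1.90 and -1.53 on the controls and between -0.55 and -0.46 after contusion. Only the shift of this difference between the groups can be read, since levels of different probes are not comparable. These means are scores over the members and carry no p-value. The replication-dependent mean includes Hist1h2an and Hist1h3a, which passed the filter through the contusion arrays alone (described below). The median level over the same genes was -0.15, -0.28, -0.07 and -0.30 on control arrays 1 to 4. On contusion arrays 1 to 4 it was 1.17, 0.96, 1.20 and 1.32. Among the controls, arrays 1 and 3 stood above arrays 2 and 4 in the replication-dependent mean, and contusion array 2 was the lowest of its group. The arrays lay on a pair of slides: slide 1 held control arrays 2, 3 and 4 with contusion array 1, and slide 2 held the rest. Within slide 1 the median difference of the replication-dependent genes was 1.34, and within slide 2 it was 1.22. Each within-slide value rests on a single array of 1 group, and by the descriptions slide and day cannot be told apart.

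**Figure D2:**
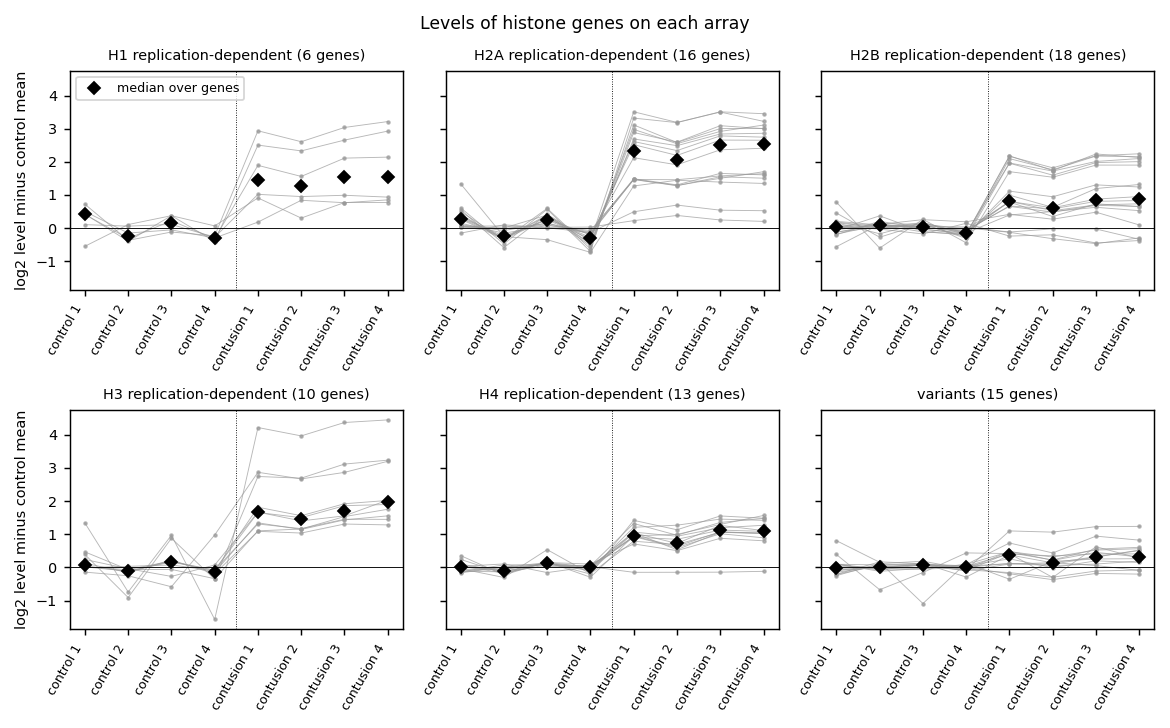
Each grey line is 1 histone gene, plotted as its log2 level minus its mean over the 4 controls (y axis) on each of the 8 arrays (x axis), and diamonds are medians over the genes of a panel. The steps between control and contusion arrays are tallest for the H2A and H3 genes and lowest for the 15 variants. A single H4 line, that of Hist1h4h, stays near 0 on all 4 contusion arrays.

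The 6 replication-dependent H1 genes, the linker histones, all rose, with a median difference of 1.45. Hist1h1b (H1f5 in current naming) had levels of -0.73, -1.82, -1.57 and -1.68 on the control arrays and 1.49, 1.16, 1.59 and 1.77 on the contusion arrays. The groups were far apart, with control 1 the highest control, and the gene rose 7.72-fold (2.95 ± 0.24, adjusted p = 0.000146). Hist1h1d (H1f3) went from -1.39, -2.21, -1.44 and -2.22 to 0.69, 0.51, 0.84 and 1.11, a rise of 6.08-fold (2.60 ± 0.23, adjusted p = 0.000173). Hist1h1a (H1f1) went from -1.31, -2.04, -1.50 and -2.04 to 0.17, -0.16, 0.39 and 0.42 and rose 3.80-fold (1.93 ± 0.20, adjusted p = 0.000283). In both genes controls 1 and 3 again stood above controls 2 and 4. Hist1h1c (H1f2), a linker histone of many tissues that is also expressed in resting cells, rose less, 1.96-fold (0.97 ± 0.10, adjusted p = 0.000223). Its contusion levels were 0.99, 0.93, 0.97 and 0.91, and its controls 0.08, 0.03, 0.09 and -0.30. The smallest H1 differences were those of Hist1h1e (0.69 ± 0.21, adjusted p = 0.0304) and of the testis-type Hist1h1t (0.66 ± 0.21, adjusted p = 0.0366), whose groups overlapped. Hist1h1e lost its call without control 2 or 4 or contusion 1, 3 or 4, with limma's adjusted p up to 0.0727. Hist1h1t lost it without control 2, 3 or 4 or contusion 2, 3 or 4, with limma's adjusted p up to 0.0949.

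All 16 tested H2A genes rose by their brightest tested probe, with a median of 2.35, the highest of the 5 families. For Hist1h2aa and Hist3h2a the rise rests on 1 of 2 probes, as described below. The largest measured increase was that of Hist1h2ab, from 0.86, -0.23, 0.81 and -0.46 on the controls to 3.56, 3.43, 3.75 and 3.70, or 10.3-fold (3.37 ± 0.30, adjusted p = 0.000182). The contusion arrays stood close together, while the controls split into a higher pair (1 and 3) and a lower pair (2 and 4). Hist1h2ap rose 7.61-fold, from 4.47, 3.74, 4.68 and 3.46 to 7.20, 6.67, 7.09 and 7.10 (2.93 ± 0.27, adjusted p = 0.000196). Hist1h2ae rose 7.43-fold, from 4.09, 3.26, 3.97 and 3.06 to 6.48, 6.19, 6.68 and 6.60 (2.89 ± 0.24, adjusted p = 0.00015). Both repeat the split of the controls. No control array and all 4 contusion arrays read Hist1h2an well above background, and after contusion its levels were -3.25, -3.57, -3.26 and -3.54. Its increase was at least 4.18-fold (adjusted p = 0.000132), and since it passed the filter through the contusion arrays alone it had to differ. The lowest H2A differences were in the Hist2 cluster: Hist2h2aa2 rose 1.48-fold (0.56 ± 0.07, adjusted p = 0.000707) and Hist2h2aa1 1.20-fold (0.26 ± 0.08, adjusted p = 0.026). Hist2h2aa1 lost its call without control 4 or contusion 2 or 3, with limma's adjusted p up to 0.0645. The dimmer probe of Hist2h2aa1 was also called higher, with a larger difference of 0.78. Hist1h2ad had one control, array 1, at -2.80 among contusion levels of -2.86 to -2.69, and its rise (1.36 ± 0.40, adjusted p = 0.0259) was lost without control 2, 3 or 4 or contusion 2, 3 or 4 (adjusted p up to 0.0669) and in the fit blocked on slide (adjusted p = 0.0806).

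The 18 H2B genes were split: 14 rose, Hist1h2be fell and 3 were not called, with a median of 0.77. Hist1h2bn, Hist1h2bl and Hist1h2bf, with levels from -2.01 to -1.41 on all control arrays and from 0.02 to 0.64 on all contusion arrays, rose 4.30-fold, 4.20-fold and 4.13-fold (each with an adjusted p of 8.32e-05). Their probes are much alike: that of Hist1h2bn matches that of Hist1h2bf in 57 of 58 aligned bases and that of Hist1h2bl in 51 of 55. Whether the probes read the same mRNAs was not tested. Hist1h2bb rose 3.86-fold, from -2.94, -3.67, -3.27 and -3.71 to -1.43, -1.68, -1.39 and -1.30 (1.95 ± 0.18, adjusted p = 0.000183). In these 4 genes the contusion levels of array 2 were the lowest of their group. Hist1h2be, in the same cluster, had control levels of -0.19, -0.28, -0.43 and -0.11 and contusion levels of -0.49, -0.45, -0.70 and -0.63. Its groups lay side by side without overlap and it fell by 0.32 ± 0.09 (adjusted p = 0.026). That call was lost without control 1, 2 or 4 or contusion 3 or 4 (adjusted p 0.0515 to 0.0716) and in the fit blocked on slide (adjusted p = 0.0678). It was also lost with normexp correction (-0.18, adjusted p = 0.107) and with the mean of both probes (-0.18, adjusted p = 0.137), and the other probe gave -0.037 (adjusted p = 0.802 over all probes). The 3 uncalled genes were Hist1h2bp (0.31 ± 0.18, adjusted p = 0.218), Hist1h2bh (-0.30 ± 0.11, adjusted p = 0.0525) and Hist2h2be (-0.13 ± 0.10, adjusted p = 0.343). Hist1h2bh was called without control 1 (adjusted p = 0.0243) or contusion 1 (adjusted p = 0.0354), and Hist1h2bp with slide as a block (0.54, adjusted p = 0.0348). Some histone genes can also make mRNAs with a poly(A) tail, and a probe near such an end would hold the signal AATAAA or ATTAAA. Of the 98 replication-dependent probes 3 held it, on the strand of the mRNA and all in H2B genes: Hist1h2be, Hist2h2be and Hist1h2br. The 2 first are the genes just named as lower and uncalled, and the third rose (1.03 ± 0.16, adjusted p = 0.0014). Of all probes on the array 10.8% held either signal on that strand, and 5.67% held it on the other.

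The 10 tested H3 genes all rose and all by at least 2-fold, with a median of 1.70. Hist1h3b had the largest difference of any histone gene. Its controls were spread widely, at -3.22, -5.31, -3.59 and -6.13, and 3 of the 4 were well above background, while the contusion arrays stood together at -0.34, -0.60, -0.19 and -0.11. It rose by 4.25 ± 0.60 (adjusted p = 0.000941), or 19.1-fold, and by at least 17.2-fold with each control no lower than the lowest signal well above background on its array. Hist1h3g rose 7.48-fold, from -3.77, -3.88, -4.21 and -2.64 to -0.75, -0.95, -0.76 and -0.42 (2.90 ± 0.31, adjusted p = 0.000297). Here control 4 was the highest control, unlike in the H1 and H2A genes above. Hist1h3f rose 3.55-fold, from -0.20, -0.16, -0.12 and -0.30 to 1.62, 1.36, 1.73 and 1.83 (1.83 ± 0.10, adjusted p = 8.32e-05), with tight groups. For Hist1h3a 0 control arrays and all 4 contusion arrays were well above background, the latter at -4.28, -4.33, -3.90 and -3.79, and was at least 2.63-fold higher (adjusted p = 0.000509). Like Hist1h2an it passed the filter through the contusion arrays alone and had to differ. Without these 2 genes, 56 of 61 replication-dependent genes rose and the median was 1.35.

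The 13 H4 genes moved within a narrow band, from 0.72 to 1.40 for the 12 that rose, with a median of 0.99 for all 13. Hist1h4i rose 2.64-fold (1.40 ± 0.13, adjusted p = 0.000209), from levels of -1.22, -1.64, -1.32 and -1.66 to -0.04, -0.33, 0.09 and 0.02. Hist1h4k rose 2.53-fold, from -1.36, -1.44, -1.24 and -1.46 to -0.16, -0.10, 0.08 and 0.05 (1.34 ± 0.08, adjusted p = 8.32e-05). Hist1h4j rose 2.43-fold (1.28 ± 0.12, adjusted p = 0.000183) and Hist1h4m 2.30-fold (1.20 ± 0.19, adjusted p = 0.00153). These 4 genes were named among those whose groups do not overlap, so no control array could reach their contusion levels. Hist1h4h stood apart: its levels were 1.14, 1.21, 0.95 and 1.13 on the controls and 0.96, 0.96, 0.96 and 0.99 after contusion. The contusion values nearly coincided and lay above control 3 and below the other controls, and the gene was not called (-0.14 ± 0.07, adjusted p = 0.154). Without control 3 it was called lower (adjusted p = 0.0487).

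By cluster, 49 of the 53 tested genes of Hist1 rose (median 1.40), 5 of 6 of Hist2 (median 0.78), all 3 of Hist3 (median 0.72) and the single gene of Hist4 (1.12 ± 0.09, adjusted p = 0.000133). Of all mRNA genes tested, 25.8% were called higher and 51.1% either way. In Hist3, the probes of Hist3h2ba and Hist3h2bb-ps match in 57 of 57 aligned bases, and Hist3h2a rose by 1 of 2 probes. The array's coordinates, which are given on mm9 (NCBI build 37) for the catalogue probes, place Hist1 at chr13:21814139-24026718, Hist2 at chr3:96024461-96067012, Hist3 at chr11:58767697-58768446 and Hist4 at chr6:136752717-136752776. The spans cover 22, 5, 2 and 1 genes with a placed probe. The custom probes carry no coordinates in the files.

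Among the 9 H2A variants tested 4 rose, beside 25.8% of all mRNA genes called higher and 51.1% called either way. H2afx (H2ax), the variant that is phosphorylated at DNA breaks, went from 3.31, 3.42, 3.37 and 3.48 to 4.13, 3.83, 4.34 and 4.22 and rose 1.66-fold (0.73 ± 0.11, adjusted p = 0.00124). Contusion 2 was again the lowest of its group, and no control reached it. H2afz (H2az1), the H2A.Z of promoters, rose 1.38-fold, from 5.89, 5.86, 5.85 and 5.98 to 6.37, 6.21, 6.42 and 6.46 (0.47 ± 0.07, adjusted p = 0.0016). H2afv (H2az2), the second gene of H2A.Z, rose 1.37-fold by its brighter probe, from 5.47, 5.44, 5.49 and 5.33 to 5.88, 5.66, 5.98 and 6.04 (0.46 ± 0.09, adjusted p = 0.00547). Its other probe, with a poly(A) signal, gave -0.33 ± 0.12 (adjusted p = 0.0525 over all probes), and the mean of both probes was not called (adjusted p = 0.615). H2afj had the largest difference among the variants, 2.23-fold (1.16 ± 0.07, adjusted p = 8.32e-05), but by 1 of its 3 probes alone, as described below.

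The H3.3 genes H3f3a and H3f3b, which supply H3 outside S phase, rose slightly. H3f3b went from 5.44, 5.62, 5.67 and 5.63 to 5.99, 5.94, 6.00 and 6.00, or 1.31-fold (0.39 ± 0.07, adjusted p = 0.00241), and 3 of its 4 probes were called higher. H3f3a went from 5.86, 6.22, 6.30 and 6.06 to 6.60, 6.32, 6.57 and 6.43, or 1.29-fold (0.37 ± 0.11, adjusted p = 0.0308). The groups of H3f3a nearly touched, and its call was lost without control 1 or 4 or contusion 1, 3 or 4 (adjusted p 0.0525 to 0.0798), although all 4 of its probes were called higher. The difference between the variant and replication-dependent H3 genes was not tested.

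Of the 9 remaining variants H1fx fell and 8 were not called. The macroH2A genes, whose products mark inactive chromatin, were not called: H2afy (Macroh2a1) differed by 0.15 ± 0.09 (adjusted p = 0.248) and H2afy2 (Macroh2a2) by 0.12 ± 0.06 (adjusted p = 0.194). With slide as a block H2afy was called (0.26, adjusted p = 0.0432), as it was with normexp background correction (0.26, adjusted p = 0.00477). H1f0, the linker histone of differentiated cells, had levels of 4.74, 5.12, 5.06 and 4.88 on the controls and 4.79, 4.65, 4.84 and 4.87 after contusion, which overlap (-0.16 ± 0.10, adjusted p = 0.241). H1fx (H1f10) fell by 0.24 ± 0.07 (adjusted p = 0.0287), from 2.64, 2.49, 2.49 and 2.54 to 2.35, 2.17, 2.36 and 2.34. Both of its probes were called lower, and the call was lost without control 1 or 4 or contusion 2 or 4 (adjusted p 0.0516 to 0.0655). Of the oocyte and testis variants none was called: H1foo differed by 0.05 ± 0.08, H1fnt by 0.34 ± 0.12 (adjusted p = 0.0524), H2ab1 by 0.09 ± 0.37, H2ab3 by 0.25 ± 0.29 and H2al2a by 0.26 ± 0.11. H2ab1 and H2ab3 were well above background on 3 of 4 control arrays each. H1fnt was called without contusion 2 (0.40, adjusted p = 0.0351), and H2ab1 turned to -0.28 without control 3.

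Histone genes resemble each other closely, so a probe for one could also read others, which was not tested. In alignments without gaps, 59 of the 136 probes matched a probe of another gene in at least 30 bases, which need not be adjacent. Of these, 18 did so in at least 50 bases. In the array's own annotation, 23 of the 57 catalogue probes list more than 1 RefSeq mRNA. A group of 4 coding probes for H2B genes is printed as an example of near-identical probes, chosen with their values known. Capitals mark bases that differ from the first probe.
Hist1h2bk: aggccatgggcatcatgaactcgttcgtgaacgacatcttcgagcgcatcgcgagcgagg
Hist1h2bm: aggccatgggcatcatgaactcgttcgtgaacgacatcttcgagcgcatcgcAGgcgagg
Hist3h2ba: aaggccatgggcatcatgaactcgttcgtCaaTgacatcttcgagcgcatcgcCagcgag
Hist3h2bb-ps: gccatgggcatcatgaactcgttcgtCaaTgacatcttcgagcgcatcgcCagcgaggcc
The last 3 match the first in 58 of 60, 56 of 59 and 55 of 58 aligned bases. The array places the first probe at chr13:22127928-22127987, the second at chr13:21814139-21814198 and the last at chr11:58767697-58767756 (mm9). Their differences were 0.81 ± 0.09, 0.69 ± 0.09, 0.72 ± 0.08 and 0.62 ± 0.07, in the order printed. Probes elsewhere in the same genes gave other values. The stem-loop probe of Hist1h2bk went from -4.68, -5.33, -4.40 and -5.69 to -1.57, -1.96, -1.51 and -1.35 (3.43 ± 0.28, adjusted p = 0.000104 over all probes). The start-codon probe of Hist1h2bm was not called (0.10 ± 0.12, adjusted p = 0.522).

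A second group covers the end of the coding part of H2A genes and is printed because its members include a testis-type gene and a variant. Capitals again mark bases that differ from the first probe where the probes overlap.
Hist1h2aa: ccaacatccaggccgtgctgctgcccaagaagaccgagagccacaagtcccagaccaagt
Hist1h2af: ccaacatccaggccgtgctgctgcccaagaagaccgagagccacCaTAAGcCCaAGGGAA
H2afj: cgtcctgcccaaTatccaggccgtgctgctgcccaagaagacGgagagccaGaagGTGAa
The second matches the first in 47 of 60 aligned bases and the third in 45 of 52. They lie at chr13:24026659-24026718, chr13:23626108-23626167 and chr6:136757181-136757240 (mm9). Hist1h2aa is a testis-type H2A gene, and by this probe it rose 2.90-fold, from 5.95, 5.78, 6.00 and 5.67 to 7.32, 7.31, 7.43 and 7.49 (1.54 ± 0.09, adjusted p = 8.32e-05). Its stem-loop probe was well above background on 0 of the 8 arrays. The Hist1h2af probe gave a similar difference (1.45 ± 0.09), as did that of H2afj, which went from 6.18, 6.20, 6.31 and 6.14 to 7.31, 7.27, 7.44 and 7.44. The 2 other probes of H2afj, which share no such stretch with another histone probe, were not called (-0.13 ± 0.07 and 0.04 ± 0.07, adjusted p = 0.149 and 0.728 over all probes). Whether the shared stretch carries signal of other H2A mRNAs was not tested.

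Of the 25 replication-dependent genes with several tested probes, 19 had all their probes called higher, 1 had none called and 5 had mixed calls. The same count over all mRNA genes was not made, and 25.8% of those were called higher by 1 probe each. Hist1h2ba, another testis-type gene, had probes called in opposite directions (0.63 ± 0.11, adjusted p = 0.00182, and -0.35 ± 0.10, adjusted p = 0.0212, both over all probes). In Hist3h2a the brighter probe rose from 3.23, 2.92, 3.16 and 3.01 to 4.54, 4.37, 4.58 and 4.78 (1.49 ± 0.11), while the stem-loop probe stayed between 2.02 and 2.43 on all arrays (-0.12 ± 0.11, adjusted p = 0.388). Hist2h3c1 rose by both its probes, by 1.35 ± 0.09 and, at its stem-loop, by 0.35 ± 0.07. By contrast, the 2 probes of Hist1h2ab gave 3.37 and 3.23, and those of Hist1h3d 1.37 and 1.54. With the dimmest tested probe of each gene in place of the brightest, an alternative added later, 6 of the 66 calls were lost, that of Hist1h2ba turned from higher to lower and H2al2a was called lower (-0.67, adjusted p = 0.0159). Genes in this and the preceding 2 paragraphs were chosen after their values were seen.

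**Figure D3:**
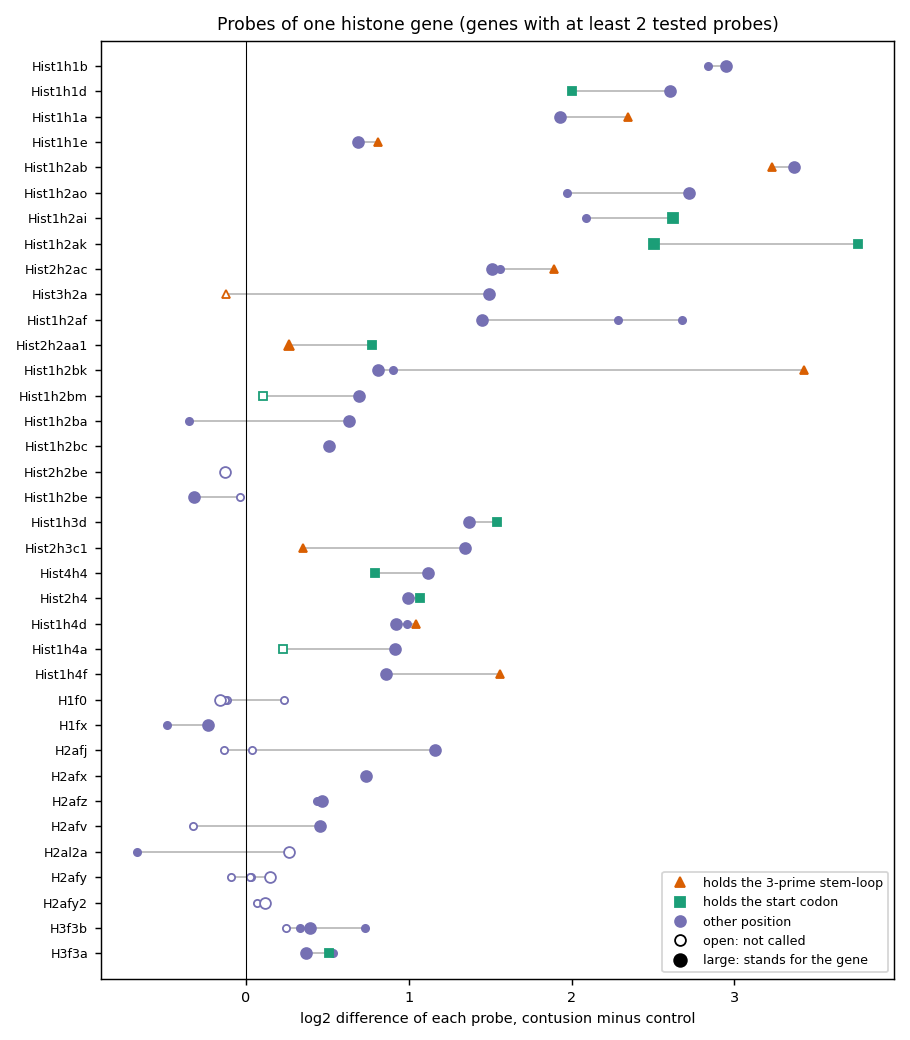
For each of the 36 histone genes with at least 2 tested probes, the log2 difference of every probe is plotted on the x axis. Triangles hold the 3′ stem-loop, squares a start codon followed by the first codons of a histone, and circles neither; open symbols were not called, and the large symbol stands for the gene. The longest bars belong to Hist1h2bk, from 0.81 to 3.43, Hist3h2a and H2afj.

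The promoters of the genes were also searched for short motifs. The RefSeq promoter table (GRCm38.p6) holds 75 of the 82 genes, with 250 bases before and 50 after each start. The motifs searched, on both strands, were TATAAA, the core of the TATA box, then the CCAAT box, and last the octamer bound by Oct factors, spelled ATTTGCAT. Overlapping matches were counted for each motif. A TATAAA was found in 35 of 60 replication-dependent genes and 1 of 15 variants, and in 15.7% of the 27025 genes of the table. CCAAT was found in 51 of 60 and 10 of 15, and in 41.1% of all genes. The octamer was found in 13 of 60, which were 7 of 18 H2A and 6 of 15 H2B genes, and in 1 variant, and in 1.97% of all genes. CCAAT was found in all 48 H1, H2A, H2B and H3 genes and in 3 of 12 H4 genes. The 120 bases before the start are shown for the gene of largest measured increase in each family, then for the uncalled Hist1h4h and for the variant H2afz, with these motifs in capitals.
Hist1h1b: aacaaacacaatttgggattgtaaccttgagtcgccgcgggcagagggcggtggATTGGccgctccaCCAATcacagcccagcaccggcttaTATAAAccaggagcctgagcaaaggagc
Hist1h2ab: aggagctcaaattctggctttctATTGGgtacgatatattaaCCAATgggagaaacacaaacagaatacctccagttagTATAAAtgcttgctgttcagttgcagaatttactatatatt
Hist1h2bn: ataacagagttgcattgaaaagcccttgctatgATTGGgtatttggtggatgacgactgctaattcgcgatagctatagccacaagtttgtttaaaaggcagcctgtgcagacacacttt
Hist1h3b: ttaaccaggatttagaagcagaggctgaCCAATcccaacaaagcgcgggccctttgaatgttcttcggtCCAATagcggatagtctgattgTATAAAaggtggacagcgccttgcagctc
Hist1h4i: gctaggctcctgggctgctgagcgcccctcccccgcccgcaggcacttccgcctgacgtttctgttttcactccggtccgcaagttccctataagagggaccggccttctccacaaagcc
Hist1h4h: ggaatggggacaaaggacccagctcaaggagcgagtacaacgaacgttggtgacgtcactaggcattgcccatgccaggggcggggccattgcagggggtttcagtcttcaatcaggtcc
H2afz: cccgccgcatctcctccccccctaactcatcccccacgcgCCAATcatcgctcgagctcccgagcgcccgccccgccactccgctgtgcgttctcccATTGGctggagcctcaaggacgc
On GRCm38.p6 these stretches are Hist1h1b at chr13:21780626-21780745 on the minus strand, Hist1h2ab at chr13:23750968-23751087 on the plus strand, Hist1h2bn at chr13:21753956-21754075 on the plus strand, Hist1h3b at chr13:23752225-23752344 on the plus strand, Hist1h4i at chr13:22041363-22041482 on the minus strand, Hist1h4h at chr13:23530924-23531043 on the plus strand and H2afz at chr3:137864367-137864486 on the plus strand. In Hist1h1b and Hist1h3b the TATAAA begins 28 and 29 bases before the start, with CCAAT pairs 66 and 53, and 92 and 51, bases before it. Hist1h4i and Hist1h4h hold none of these letters in the stretch shown. Matches are a description of letters, and no match in this window says nothing about a factor. Whether the motifs go with the differences after contusion was not tested.

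The genes that make, carry or accompany histones were then set beside them. Of 22 genes of histone transcription and 3′ end processing 8 rose and 3 fell, with a median difference of 0.04, a called share near the 51.1% of all mRNA genes. Slbp, which binds the stem-loop, was not called (levels of 3.39, 3.51, 3.41 and 3.55 on the controls and 3.57, 3.48, 3.65 and 3.46 after contusion, 0.08 ± 0.07, adjusted p = 0.439), nor was Npat, the coactivator of histone genes (0.01 ± 0.11, adjusted p = 0.957). Nfya, a subunit of the CCAAT-binding factor, rose 2.10-fold (1.07 ± 0.11, adjusted p = 0.000298), while the other subunits, Nfyb (-0.14 ± 0.08, adjusted p = 0.208) and Nfyc (0.12 ± 0.08, adjusted p = 0.323), were not called. Lsm11, of the U7 particle that cuts histone pre-mRNA, fell by 0.75 ± 0.06 (adjusted p = 0.000134) by its brighter probe, and by its dimmer probe was not called (-0.23, adjusted p = 0.0672). Lsm10, of the same particle, rose 1.51-fold (0.59 ± 0.08, adjusted p = 0.000577). Eri1, the exonuclease that trims histone mRNA ends, rose 1.93-fold (0.95 ± 0.08, adjusted p = 0.000141) by its brighter probe, while its dimmer probe was not called (-0.07, adjusted p = 0.59).

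Of 27 histone chaperones and deposition factors 11 rose and 0 fell, with a median of 0.17, beside 25.8% of all mRNA genes called higher and 51.1% called either way. Chaf1b, a subunit of the CAF-1 complex that deposits new H3 and H4 behind the replication fork, went from -1.44, -1.77, -1.44 and -2.12 to 1.75, 1.44, 1.89 and 1.93 and rose 10.9-fold (3.45 ± 0.18, adjusted p = 8.00e-05). Asf1b, the chaperone that hands H3 and H4 to it, rose 7.76-fold (2.96 ± 0.18, adjusted p = 8.32e-05). Cenpa, the H3 variant of centromeres, which is counted with the mitosis genes below, rose 6.89-fold (2.78 ± 0.31, adjusted p = 0.000356). Hira, Daxx and Atrx, which deposit H3.3 outside replication, were not called (-0.05 ± 0.07, 0.08 ± 0.05 and -0.07 ± 0.07, chosen after their values were seen). Of 30 DNA replication genes 28 rose (median 1.53), among them Rrm2, a ribonucleotide reductase subunit, 14.2-fold, Tk1, thymidine kinase, 11.2-fold, Mcm5 6.85-fold and Mcm2 4.00-fold, subunits of the helicase, and the sliding clamp Pcna 2.26-fold. Of 22 mitosis genes 21 rose (median 3.19), with Top2a 18.1-fold, Cdk1 15.4-fold, Ccnb1 14.9-fold and the proliferation marker Mki67 14.1-fold (3.82 ± 0.47, adjusted p = 0.00052). The control arrays ordered themselves in Mki67 as in the histones, with 1.54 and 0.86 on arrays 1 and 3 and -0.16 and -0.80 on arrays 2 and 4.

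**Figure D4:**
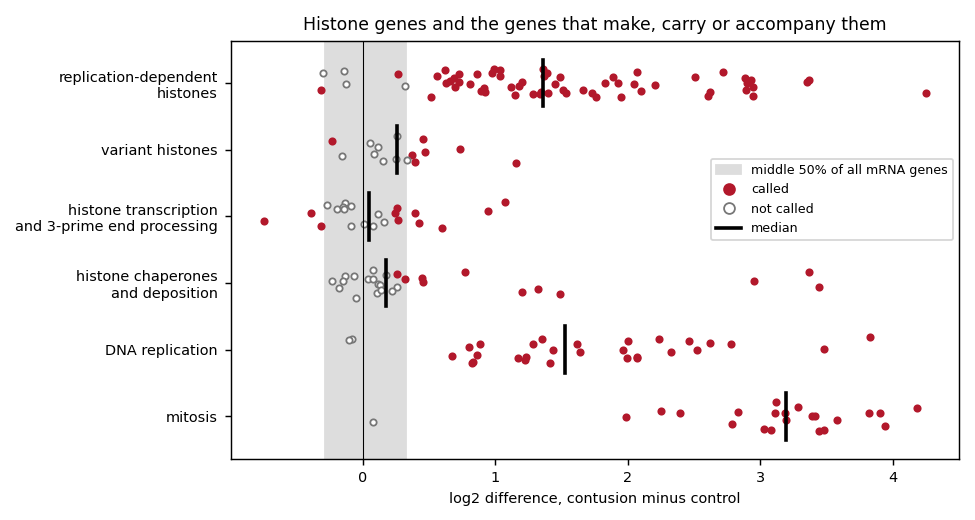
Log2 differences between contusion and control (x axis) are plotted for each tested gene of 6 groups, with called genes in red, uncalled genes open, the median of each group as a black bar and the middle 50% of all mRNA genes as a grey band. The medians are 1.36 for replication-dependent histones, 0.26 for variants, 0.04 for transcription and processing, 0.17 for chaperones, 1.53 for DNA replication and 3.19 for mitosis.

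Markers of cell types moved as well. Their counts stand beside 25.8% of all mRNA genes called higher, 25.4% lower and 51.1% either way. All 7 macrophage markers rose, and their summed level, on the linear scale relative to the 75th percentile, was 20.8 to 91.5 on the controls and 417 to 508 after contusion. Of 5 microglia markers 3 rose, with sums of 68.8 to 113 and 172 to 204, and of 3 endothelial markers all rose, with sums of 16.4 to 29.0 and 47.8 to 54.6. All 5 neuron markers fell, with sums of 904 to 1080 and 572 to 671, and of 4 astrocyte markers 3 rose and 1 fell. None of the 5 lymphocyte, 4 oligodendrocyte or 5 skeletal muscle markers was called, while 1 of 8 neutrophil markers rose (sums of 18.5 to 140 and 41.4 to 167) and 5 of 6 erythroid markers (sums of 431 to 974 and 992 to 2027). The skeletal muscle sum was 3.24 to 13.0 on the controls and 4.63 to 121 after contusion: the mean level of these markers was 4.25 and 2.09 on contusion arrays 1 and 2, and -0.49 and -0.79 on arrays 3 and 4, within the control range. Control arrays 1 and 3 stood above arrays 2 and 4 in the mean level of several marker lists as well: macrophage (2.06 and 1.83 against 1.26 and -0.040), neutrophil (2.39 and 2.57 against -0.0043 and 1.19), endothelial (2.51 and 2.74 against 1.98 and 2.11) and skeletal muscle (1.08 and 0.11 against -1.29 and -0.78). Of 5 germ cell markers 1 (Dazl) fell and none rose, with sums of 1.83 to 2.19 and 1.93 to 2.32. No defining marker of these lists was at 0. The part of these cell types in the histone differences was not tested.

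Circular RNA probes give another readout of the same genes. The build of their positions is not given in the sources used here. Genes of GRCm38 contained 98.2% of them as given and 40.8% once all were moved by 1000000 bases, so that build was used, and 16 circRNAs fell inside 11 histone genes. Of the 15 tested 12 were called higher, as were 16.2% of all 35615 circRNAs tested, and 3, all in H2afy, were not called. Those in Hist1h1a, Hist1h1c (a pair), Hist1h1d, Hist1h1e, Hist1h4d and Hist4h4 differed by 0.90 to 2.35. The circRNA in H2afj rose by 1.48 ± 0.10 (adjusted p = 0.000105), although only 1 of the 3 mRNA probes of H2afj was called higher. Whether this circRNA probe resembles other H2A genes was not tested. The circRNAs in H2afy ranged from -0.05 to 0.69. Since replication-dependent genes have no introns, whether these probes separate a circle from the linear mRNA was not tested.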

How the data were processed

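RNA of spinal cord from 8 mice was hybridised with Cy3 to 8 one-colour Agilent arrays, 4 per group. Per the file headers, the deposited intensity values had the background subtracted and a multiplicative trend removed on each array by Feature Extraction (version 12.0.3.1 in the headers and 10.7 in the submitters' processing notes, which also name limma). The authors also deposited a table of log2 values whose scale and normalization between arrays were read from its values and which served as an alternative. Probe coordinates are on mm9, per the file headers.

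From the intensities, log2 values minus each array's 75th percentile over non-control probes (203 to 252 before the log) were computed here. Of the 150305 non-control probes 72.9% to 75.4% were well above background on an array and 0 spots were saturated; 17057 of 172336 spots (9.90%) are not analysed here. Precision is limited by how many arrays there are. Over mRNA genes the standard error had a median of 0.0944, and arrays of a group correlated at 0.9885 to 0.9961. Of 22694 mRNA accessions 99.1% matched RefSeq, and 82 of 83 for histones. Gene-wise tests used limma 3.58.1 (lmFit and eBayes, R 4.3.3) over all genes, with the brightest tested probe standing for a gene; values given "over all probes" come from the same fit to every tested probe. The fit was tested on simulated data. An "at least" fold sets the contusion mean against the mean of the controls, each control taken as the higher of its own value and the lowest signal well above background on that array. The members and lists were chosen with earlier results of these data known. Named genes were, in each replication-dependent family, up to 4 called genes with the largest increase and 2 with the largest decrease whose groups did not overlap, the uncalled gene farthest from 0, every variant and up to 3 genes of each other list; others named were chosen after their values were seen. One gene that this rule names is not reported here. Replicate numbers did not pair the arrays. Alternatives changed the background correction, normalization, filter, probe choice, slide or replicate block and left out each array in turn.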

Additional observations from a re-analysis of the deposited data

Results flagged for a closer look

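In 6 of the 112 groups of 4 arrays examined, 1 array stood apart from the others by more than Dixon's 95% critical value for the gap over the range, and chance gives about 5% of groups. Among the controls, array 4 was low for H1fnt, at -3.95 against -3.58 to -3.54, and for Hist1h1c, at -0.30 against 0.03 to 0.09. After contusion, array 2 was low for H1fx, at 2.17 against 2.34 to 2.36, and for H3f3b, at 5.94 against 5.99 to 6.00. Array 1 was low for H2ab1, at -5.05 against -4.51 to -4.43, and array 4 was high for Hist1h4h, at 0.99 against 0.96.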

How the results depend on the processing

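The 58 replication-dependent genes called higher stayed within 54 to 58 when single arrays were left out, and were 28 of 30 tested with catalogue probes alone, a setting with fewer genes. The 1 called lower became 0 with normexp correction, the mean of a gene's probes, slide as a block or catalogue probes, and 2 with the filter on all 8 arrays or custom probes (0 to 2 without single arrays). Their median of 1.36 was 0.95 with normexp and 1.14 with catalogue probes (1.31 to 1.40 without single arrays). The 6 variants called higher were 3 of 12 with custom probes (5 to 7 without single arrays). The 1 called lower was 0 without a filter or with the replicate block and 2 with the dimmest or custom probes (0 to 1 without single arrays). Their median of 0.26 was 0.093 with the mean of probes, 0.070 with the dimmest and 0.13 with custom probes (0.22 to 0.40 without single arrays). All mRNA genes gave 7928 to 9610 calls without single arrays. Calls in the transcription and processing list went from 11 to 7 with the replicate block and 8 to 12 without single arrays. These alternatives on probe choice (dimmest, custom, catalogue) were chosen after seeing the data. Signs turned with the dimmest and with custom probes for Hist3h2a (-0.12), Hist1h2ba (-0.35), H2afv (-0.33), H2al2a (-0.67), Npat (-0.21) and Eri1 (-0.074), and with the dimmest alone for H2afj (-0.13) and H2afy (-0.091). They turned with the mean of probes for H2al2a (-0.21) and Npat (-0.15), with catalogue probes for H1f0 (0.23) and with slide as a block for H2ab1 (-0.33). Without single arrays H2ab1 ranged from -0.28 to 0.35 and Npat from -0.085 to 0.090. The cause of these changes was not tested. Of 38 named histone genes 25 kept their sign and side of the threshold in every alternative run. The replicate numbers share no deviations (correlations of same-numbered arrays -0.235, 0.033, 0.059 and -0.173), and the replicate block called 55 replication-dependent genes higher and 7469 mRNA genes in all, losing H1fx, H3f3a, Hist1h1e, Hist1h1t and Hist2h2aa1. What limits dim genes is signal over background: 4 histone genes could not be tested.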

Other observations

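A pair of noncoding features with histone names, which the mRNA rule leaves out, were measured on the same arrays. H2bu1-ps differed by 0.32 (limma's adjusted p = 0.160) and Macroh2a3 by 0.10 (limma's adjusted p = 0.188), and neither was called.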
